A study of Mus musculus with 1778 samples.

Results

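The cells described here are labelled cranial cells of 8 somite mouse embryos with abundant transcripts of Sox10, a transcription factor that marks neural crest as it leaves the neural tube. They were chosen by their measured levels of Sox10 and Actc1 among cells of that stage and of 1 plate number that had at least 50000 reads other than spike-ins and at least 1500 detected genes. A member had at least 50 CPM (counts per 1000000 reads) of Sox10 and under 50 CPM of Actc1, the cardiac actin gene, with CPM taken per cell over all reads except spike-ins and the ribosomal precursor Rn45s. The members were 62.3% of the kept cells, 96 with under 9000 detected genes and 36 with more, and 80 other cells of the stage and plate number did not meet the rule. The whole series kept 1728 of 1778 cells. Of the 80, 61 had under 10 CPM of Sox10 and are called Sox10-low cells, 14 lay between the Sox10 limits, and 5 had enough Sox10 but 75.1 to 122.2 CPM of Actc1. The members were described against the 61 Sox10-low cells, and against 45 cells of 6 somites on the same plate number with at least 50 CPM of Sox10 and no limit on Actc1. Levels of these 2 genes are therefore given as description alone.

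All groups came from C57BL/6 embryos carrying Wnt1::Cre and Rosa26TdTomato, in which Cre driven by Wnt1 leaves a lasting red label in cells with a history of Wnt1 transcription. Cells of dissected embryos were put singly into lysis buffer by flow cytometry and read with Smart-Seq2, which covers whole transcripts and has no molecular identifiers. A control without the label or without Cre was not analysed here. The labels name no embryo, litter or sex, so every stage counts as a single pool, cells were not treated as replicates, no test was run and no p-value is given. Ratios are log2 ratios of CPM in reads summed over the cells of a group, with 0.5 reads added, and the 95% intervals on ratios and shares cover counting error only.

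Cranial neural crest forms at the dorsal edge of the neural tube, passes through an epithelial-mesenchymal transition and migrates into the face and pharyngeal arches. Sox9, Foxd3, Tfap2 factors, Snai1 and Ets1 act around its specification and departure, and Sox10 then maintains the migrating cells and drives glial and melanocyte genes. Cells that reach the arches switch on Dlx and Alx genes and become ectomesenchyme, which builds the facial skeleton, while others become glia, neurons and pigment cells.

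The wells differed in 3 ways that bear on the results. Among 8 somite cells, 50 members and 34 Sox10-low cells lay in wells with few spike-in reads (at most 4161 and 5800), and 82 members and 27 Sox10-low cells in wells with many (at least 7132 and 10468). All 45 cells of 6 somites lay in low spike-in wells, in plate columns 1 to 5, against columns 8 to 21 for the members. Of the 36 members with at least 9000 genes, 20 sat in the plate rows A, B, N, O and P, as did 24 of the other 96. Summed over 6 erythroid markers, those 36 cells had 914 CPM and the 96 had 0.0200 CPM, with Hba-x, Hbb-bh1, Gata1, Hbb-y and Hba-a1 at 0. For 9 endothelial markers the sums were 231.5 and 15.4 CPM, with Cdh5 and Emcn at 0 in the 96. At least 9000 genes were found in 20 of the 6 somite cells and 1 of the Sox10-low cells. Xist reached 10 CPM in 0 members and in all 45 cells of 6 somites. Y-linked genes reached it in all but 2 members and in 7 cells of 6 somites, so stage and sex cannot be told apart. Those 7 cells thus reached it for both, and all 7 had at least 9000 genes. Both were also reached in 3 of the 5 cells over the Actc1 limit. The part of these features in any result was not tested. Values are therefore also given within low and high spike-in wells and for cells with under 9000 genes, choices made after the data had been seen.

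**Figure D1:**
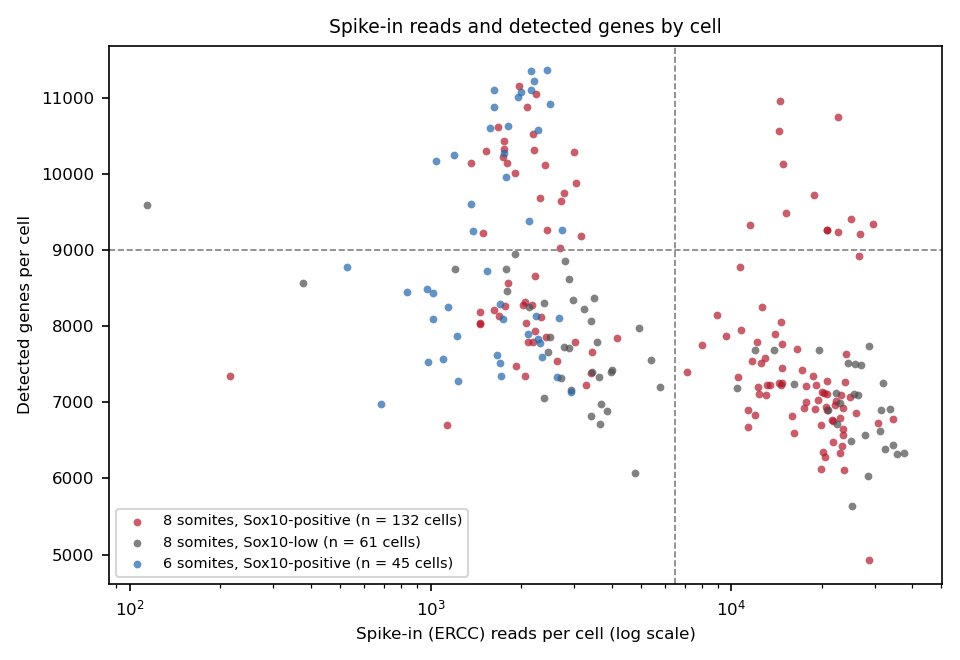
Spike-in reads per cell (x axis, log scale) and detected genes per cell (y axis) for Sox10-positive and Sox10-low cells of 8 somites and Sox10-positive cells of 6 somites. Dashed lines mark 6500 spike-in reads and 9000 genes. The 8 somite cells lie on both sides of the spike-in line, and all 45 cells of 6 somites lie left of it.

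The members had 296227 to 1473218 reads on genes (median 894180) and 4933 to 11156 detected genes (median 7726.5), and Rn45s took 43.4% of their reads. Median depth without Rn45s was 511412 reads in the members, 526955 in the Sox10-low cells and 440223 in the 6 somite cells. Sox10 stood at 58.9 CPM in the lowest member, 475.2 CPM in the median and 1869 CPM in the highest. Just inside the limit lay cells with 58.9, 63.2 and 67.9 CPM, and just outside it cells with 48.6, 43.1 and 39.2 CPM. The 3 highest levels of Actc1 among the members were 46.7, 28.8 and 27.9 CPM, and 22 members had any Actc1 read. Sox10 lies on the minus strand of chromosome 15, from 79154908 to 79165240 on mm10.

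The cells carried the crest profile that their label names, although migration itself was not measured. Summed over 6 crest markers other than Sox10, the members had 911 CPM, the Sox10-low cells 106.8 CPM and the 6 somite cells 845.9 CPM. Summed levels of markers of other cell types were lower in the members than in the Sox10-low cells. The sums were 67.97 and 226.5 CPM for 7 neural tube markers, 73.03 and 502.6 CPM for 9 endothelial markers, 138.6 and 552.4 CPM for 9 surface ectoderm markers, and 47.8 and 176.4 CPM for 9 head mesoderm markers. Erythroid markers ran the other way, at 243.7 and 14.9 CPM. Counted by cell, the order was the other way for 3 of the 4 lists with lower sums. At least 10 CPM was reached by 38.6% of members and 18.03% of Sox10-low cells for endothelial markers, 74.2% and 63.9% for surface ectoderm, 65.9% and 45.9% for head mesoderm, and 55.3% and 75.4% for neural tube. Part of the difference in sums thus lay in few Sox10-low cells with very high levels, and without its highest cell that group had a surface ectoderm sum of 331.4 CPM. The Sox10-low cells are therefore a mixture, and 24 of them had at least 50 CPM of Sox2, a neural progenitor factor. For some lists, counts of genes are also given against those 24 cells, with a group at 0 reads set to 3 reads. Over all genes, 7.63% were at least 2-fold higher and 13% at least 2-fold lower in the members than in those 24 cells. Against all Sox10-low cells the shares were 3.31% and 12.4%, so higher genes were more common against the 24 cells in general. Each such count below is to be read beside these shares. Of 8 crest genes that the rule did not use (Sox9, Ets1, Ngfr, Tfap2b, Erbb3, Dlx2, Mef2c and Snai1), all 8 reached 10 CPM in 75 members and at least 6 did in all but 13. No Sox10-low cell held more than 4 of them at that level, and 42 of 61 held at most 1. The 3 members nearest the Sox10 limit held 7, 4 and 3 of the 8. The same limits on Sox10 and Actc1 were met by 14 cells of 8 somites on another plate number, 13 of them with at least 9000 genes. Their sums were 339.2 CPM for the neural tube markers and 692.6 CPM for 7 crest markers with Sox10, where the members had 1419.5 CPM. The low neural tube sum of the members was thus not shared by those 14 cells, and the cause was not tested.

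Across 10284 genes with at least 5 CPM in either group, 3.31% were at least 2-fold higher and 12.4% at least 2-fold lower in the Sox10-positive than in the Sox10-low cells, with a median ratio of −0.08. In low spike-in wells, in high spike-in wells and in cells with under 9000 genes alike, 1.92% were higher and 7.92% lower. Each of these choices also holds fewer cells, and the part of the wells in the smaller shares was not tested. Scaling by edgeR or DESeq2 factors raised the median ratio by 0.13. By a rule on ratio, level and share of cells, the 12 leading genes were Dlx2, Tfap2b, Erbb3, Cdk18, Plcg2, Ngfr, Trim62, Mef2c, Col1a2, Fam212a, Mcc and Cdc42ep1. All 12 were at least 2-fold higher in each of the 3 choices of wells.

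Upstream sequence is shown for Dlx2 and Tfap2b, which had the highest ratios of the 12, and for Cdk18, since Tfap2b and Cdk18 were those with a SOX core. RefSeq (GRCm38.p6) held a start for 9 of the 12 genes, and the 250 bases before the first listed start were searched on both strands for ACAANG. The letters were found for 2 of the 9 genes and in 36.32% of 32851 such windows of all genes, so a match is common. Capitals mark it on either strand, and each line reads 5′ to 3′ on the gene's own strand. The windows are chr2:71546755-71547004 on the minus strand for Dlx2, chr1:19211804-19212053 on the plus strand for Tfap2b, where the RefSeq start lies inside the GENCODE gene model, and chr1:132139686-132139935 on the minus strand for Cdk18.
Dlx2: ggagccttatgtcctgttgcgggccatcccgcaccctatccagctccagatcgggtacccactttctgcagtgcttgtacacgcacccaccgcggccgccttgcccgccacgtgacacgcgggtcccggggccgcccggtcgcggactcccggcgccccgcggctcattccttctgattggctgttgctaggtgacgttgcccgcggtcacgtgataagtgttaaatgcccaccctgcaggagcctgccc
Tfap2b: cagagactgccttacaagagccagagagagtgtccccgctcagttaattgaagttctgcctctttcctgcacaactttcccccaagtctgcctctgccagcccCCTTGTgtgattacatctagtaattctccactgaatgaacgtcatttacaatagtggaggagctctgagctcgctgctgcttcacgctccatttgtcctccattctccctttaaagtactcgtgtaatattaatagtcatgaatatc
Cdk18: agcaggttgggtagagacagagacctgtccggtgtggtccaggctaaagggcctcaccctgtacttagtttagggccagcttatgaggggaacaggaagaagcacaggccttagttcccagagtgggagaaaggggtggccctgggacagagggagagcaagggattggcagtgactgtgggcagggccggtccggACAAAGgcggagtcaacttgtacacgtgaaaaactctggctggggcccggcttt

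Crest transcription factors were higher in the Sox10-positive cells. Of 18 measured, 9 were at least 2-fold higher and 1 was lower, with a median ratio of 0.94 against −0.08 over all genes. Tfap2b, an AP-2 factor of early crest, had 0 to 451.5 CPM with a median of 90.3 in the members, against 0 to 181.5 CPM with a median of 0 in the Sox10-low cells. A level of 10 CPM was reached by all but 11 members and by 3 Sox10-low cells, and the ratio was 4.59 (4.36 to 4.85). Ets1, an ETS factor of cranial crest departure, had 63.9 to 1821 CPM with a median of 405.4 in the members, against 0 to 768.5 CPM with a median of 0 in the Sox10-low cells, and a ratio of 2.65. It reached 10 CPM in every member and in 16 of 61 Sox10-low cells, so the ranges overlapped. Mef2c, a MADS-box factor needed in craniofacial crest, had medians of 151.6 and 0 CPM and a ratio of 2.99. Foxd3, a forkhead factor of early crest, was sparse, with a median of 3.15 CPM, a maximum of 116.03 CPM and 41 members at 10 CPM. In the Sox10-low cells 1 cell reached 10 CPM, and the ratio was 4.09 (3.50 to 4.82). Msx1, a homeobox factor of the neural plate border, was the lower gene of the list, at 7.25 and 24.1 CPM.

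Most relatives of Sox10 were higher too. Sox9, the SoxE factor that precedes Sox10 in crest, had 0 to 771.1 CPM with a median of 60.1 in the members, against 0 to 224.8 CPM with a median of 3.45 in the Sox10-low cells. Its ratio was 2.58 (2.46 to 2.71), with ranges that overlapped. Ratios were 1.43 for Sox5, a SoxD partner of SoxE proteins, 1.66 for Sox6, another SoxD gene, and 2.81 for Sox8, the third SoxE gene, which reached 10 CPM in 20 members. Sox8 shares exon bases with an antisense transcript, and no source used here says whether counting used strand. Leaving out Sox10, 4 of 5 SoxE and SoxD genes were at least 2-fold higher and 0 lower, and Sox13 had −0.93. Against the Sox2-positive cells 3 were higher and 1 lower.

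Against all Sox10-low cells, factors of the epithelial-mesenchymal transition were divided, with 2 of 7 higher and 2 lower. Snai1, a repressor of E-cadherin, had 91.3 CPM in the members and 19.742 CPM in the Sox10-low cells, with a ratio of 2.21, and Twist1, a mesenchymal factor, 22.8 and 8.72 CPM, with 1.38. The lower ones were Snai2, at 2.81 and 8.12 CPM, and Zeb1, at 11.9 and 30.9 CPM. Against the 24 Sox2-positive Sox10-low cells, which held 0 reads of Snai2, 4 of the factors were higher and 0 lower. Of 17 cadherin and junction genes, 1 was higher and 10 lower than in all Sox10-low cells, with a median of −1.46. Against the Sox2-positive cells 2 were higher and 7 lower, with a median of −0.67. These list counts rest on summed levels and not on shares of cells. Cdh2 (N-cadherin) had 113.8 and 232.3 CPM and a ratio of −1.03, which was −0.98 without the highest Sox10-low cell. Cdh1 (E-cadherin) had summed levels of 4.20 and 25.2 CPM. It was under 10 CPM in 56 of 61 Sox10-low cells and in most members, so its higher sum came largely from few Sox10-low cells. Cdh6, a cadherin of crest, was at 268.8 and 159.1 CPM, and Cdh11, a cadherin of mesenchyme, at 151.6 and 130.9 CPM.

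Surface receptors were also divided, with 8 of 25 higher and 8 lower. Against the Sox2-positive cells 11 were higher and 6 lower. Against all Sox10-low cells the higher ones were Gfra1, Erbb3, Ngfr, Ret, Plxna4, Ednra, Pdgfra and Ednrb. The lower ones included Kit, Fgfr2, Fgfr3, Nrp1 and Robo2. Ngfr, the low-affinity neurotrophin receptor, had 0 to 1132 CPM with a median of 144.6 in the members, against 0 to 552.2 CPM with a median of 0 in the Sox10-low cells. It reached 10 CPM in all but 13 members and in 4 Sox10-low cells, with a ratio of 4.06. Erbb3, the neuregulin receptor of glial precursors, reached it in all but 28 members and in 4 Sox10-low cells, with medians of 33.02 and 0 CPM and a ratio of 4.50 (4.18 to 4.86). Ret, a GDNF receptor, was found in fewer cells, with a median of 0 CPM, a maximum of 1277 CPM and 43 members at 10 CPM, and a ratio of 3.10 that was 2.47 without the highest member. Its coreceptor Gfra1 had 10.1 CPM in the members and 1 read over all Sox10-low cells, a ratio of 7.80 (5.90 to 13.69).

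Among 9 integrins, 2 were higher and 1 lower, against 4 and 1 when set against the Sox2-positive cells. Itga4, a subunit of fibronectin receptors whose exons overlap those of Cerkl, was read in 45.5% of members (36.8 to 54.3%) when each cell was thinned to 50000 reads, and in 0 of 61 Sox10-low cells, which allows a share of up to 4.92% when 3 of 61 cells is taken as the limit of a count of 0. Its summed levels were 33.1 and 0.241 CPM, the second from 8 reads, and the ratio was 7.01 (6.12 to 8.31). Matrix and protease genes were mostly lower where they differed from all Sox10-low cells, with 1 of 25 higher and 10 lower, the laminin genes Lama1 and Lama5 and the fibronectin gene Fn1 among the lower. Against the Sox2-positive cells 6 were higher and 6 lower. The higher gene was Col9a3, a collagen IX chain, at 34.04 and 2.66 CPM, and it overlaps exons of Tcfl5.

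Some glial genes were higher in the Sox10-positive cells. Of 6 glial and melanocyte genes, 2 were higher and 0 lower. In low spike-in wells 5 were higher and 1 lower, and against the Sox2-positive cells 4 and 0. Gfra3, a receptor for artemin, had 15.1 and 0.574 CPM and a ratio of 4.68, and Cnp, a myelin enzyme whose exons overlap those of Dnajc7, a ratio of 2.41. Fabp7, a fatty acid binding protein of early glia, was at 5.25 and 7.43 CPM.

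Ectomesenchyme genes were found alongside. Of 9 measured, 4 were higher and 2 lower, with a median of 0.74. Against the Sox2-positive cells 8 were higher and 0 lower. Dlx2, a homeobox factor of arch crest, had 0 to 273.1 CPM with a median of 57.8 in the members, against 0 to 60.7 CPM with a median of 0 in the Sox10-low cells. It reached 10 CPM in all but 24 members and in 2 Sox10-low cells, and the ratio was 5.53 (5.15 to 5.96). Alx1, a factor of frontonasal crest, was more uneven, with 0 to 588.4 CPM, a median of 17.8 and 76 members at 10 CPM, and a ratio of 2.59. Col1a2, a fibrillar collagen chain, had medians of 74.3 and 0 CPM and a ratio of 2.90, and Pdgfra, the PDGF receptor of ectomesenchyme, a ratio of 1.64. The lower genes were Col1a1, at 2.95 and 7.18 CPM, and Col3a1, at 7.78 and 62.5 CPM, of which the 24 Sox2-positive Sox10-low cells held 0 reads.

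Other leading genes act in signalling or the cytoskeleton. Plcg2, a phospholipase C, had 0 to 1155 CPM with a median of 285.8 in the members, against 0 to 353.6 CPM with a median of 0 in the Sox10-low cells, and a ratio of 4.19. Cdk18, a cyclin-dependent kinase, reached 10 CPM in all but 13 members and in 7 Sox10-low cells, with a ratio of 4.26, and Trim62, a ubiquitin ligase, in all but 26 and in 8, with 3.45. Ratios were 2.88 for Fam212a, 2.76 for Mcc and 2.71 for Cdc42ep1, a Cdc42 effector and the higher one of 29 actin and motility genes, of which 7 were lower. Against the Sox2-positive cells 10 genes of that list were higher and 1 lower, beside 7.63% higher and 13% lower over all genes. Sfrp5, a secreted Wnt inhibitor, was high in few cells, with 32 members at 10 CPM and a maximum of 562.01 CPM, and a ratio of 5.45. Rara, a retinoic acid receptor, had medians of 23.3 and 2.07 CPM and a ratio of 2.41.

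**Figure D2:**
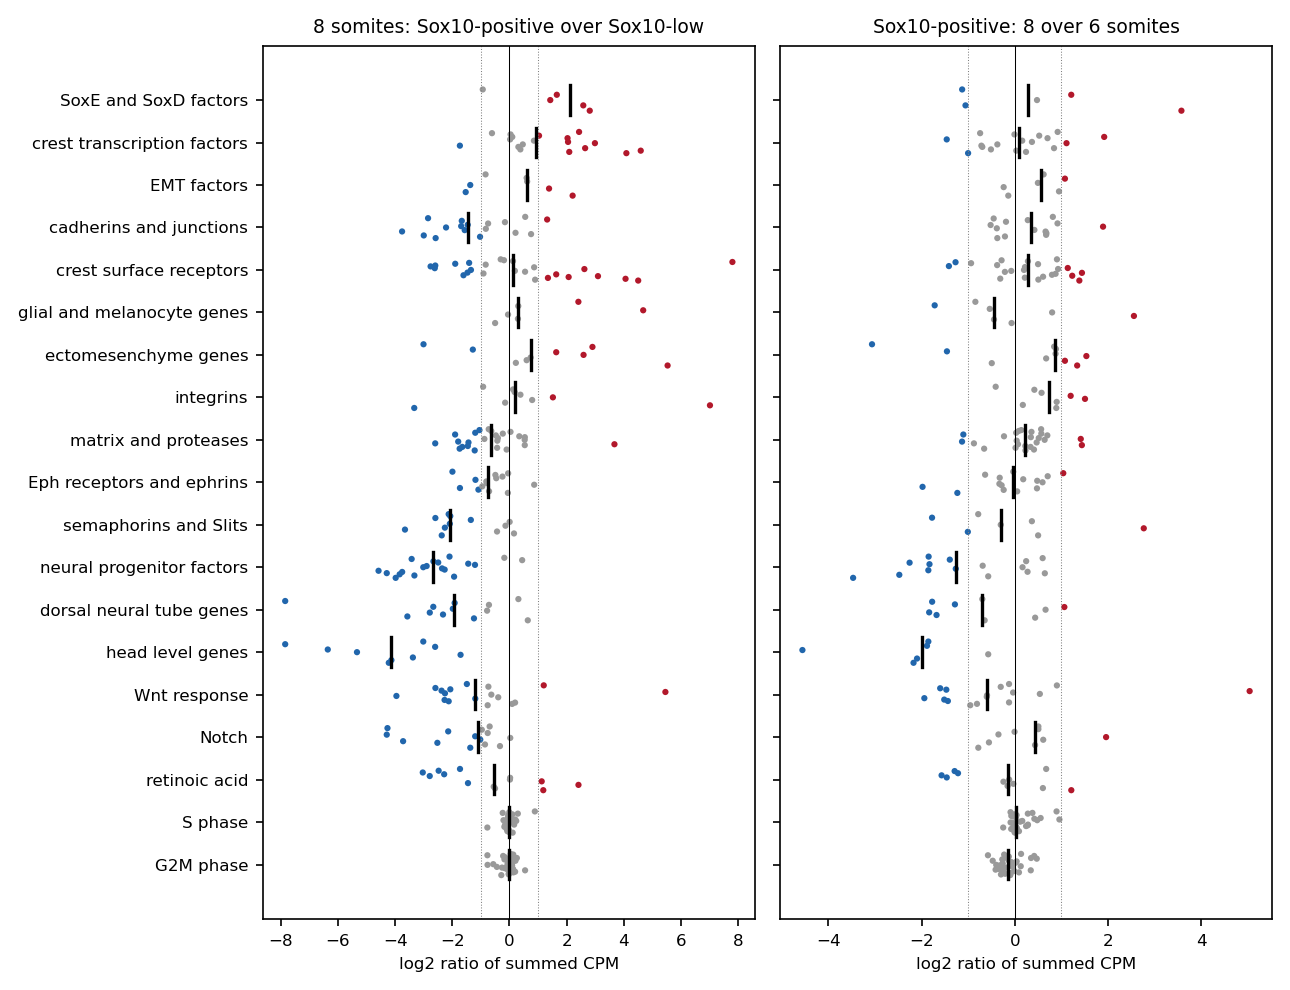
Log2 ratios of summed CPM for the measured genes of 19 gene lists, Sox10-positive over Sox10-low cells at 8 somites (left) and Sox10-positive cells of 8 over 6 somites (right). Each point is a gene, red where at least 2-fold higher, blue where at least 2-fold lower and grey otherwise, black bars are list medians, dotted lines mark 2-fold, and the Sox10 point is left out. On the left the neural progenitor and head level medians lie at −2.66 and −4.13, and those of S and G2M phase genes near 0.

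Genes of the neural tube were lower as a block. Of 19 neural progenitor factors, 17 were lower and 0 higher, with a median of −2.66, and all 9 measured genes of head level identity were lower, with a median of −4.13. Sox2 had 0 to 58.3 CPM with a median of 4.53 in the members, against 0 to 217.7 CPM with a median of 21.4 in the Sox10-low cells, and a ratio of −1.94. It was low rather than absent, with 49 members and 35 Sox10-low cells at 10 CPM. Otx2, a forebrain and midbrain factor, was at 5.48 and 96.1 CPM, Hes5, a Notch target of progenitors, at 1.85 and 36.4 CPM, and Fgf8, a signal of the midbrain-hindbrain boundary, at 0.412 and 16.9 CPM. By the same rule the 12 lowest genes were Sox21, Nuak2, Lrp2, Trp53i11, Mycl, Atp6v0e2, Arl4a, Syt11, Epb41l4a, Dpysl5, Large2 and Col18a1, with ratios between −3.84 and −2.60, and all 12 were at least 2-fold lower in each choice of wells. Sox21, a neural SoxB factor, was at 4.76 and 68.3 CPM, Lrp2 (megalin), an endocytic receptor of neuroepithelium, at 7.997 and 85.7 CPM, and Col18a1, a basement membrane collagen, had medians of 21.4 and 293.2 CPM. Wnt1, which drives the Cre, had no settled direction, at 46.2 CPM in the members and 29.6 CPM in the Sox10-low cells. The ratio was 2.08 in low and −0.80 in high spike-in wells, and 1 member held much of the reads, since the members had 22.02 CPM without it.

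Genes of several signalling pathways were lower. Of 14 Notch genes 8 were lower, of 10 Hedgehog genes 6 and of 12 semaphorins and Slits 8, with 0 higher in each. Over all genes 12.4% were lower and 3.31% higher. Against the Sox2-positive cells 5 semaphorins and Slits were lower and 1 higher. Of 17 Wnt response genes 9 were lower and 2 higher, Sfrp5 and the receptor Fzd7. Of 13 retinoic acid genes 3 were higher, Rara, Rarg and Crabp1, and 6 lower. Among the lower were the synthesis enzymes Aldh1a2 and Aldh1a3 and the breakdown enzymes Cyp26a1 and Cyp26c1. In that order they were under 10 CPM in 53, 59, 53 and 46 of 61 Sox10-low cells, and each was in most members. Their ratios thus describe sums over a group and not most of its cells. Against the Sox2-positive cells 3 retinoic acid genes were higher and 4 lower. Cell cycle genes did not separate the groups at this fold, with 0 of 30 S phase and 0 of 32 G2M phase genes past it and medians of −0.03 and −0.02. Slc2a1, a glucose transporter, had medians of 507.98 and 1267 CPM and a ratio of −1.47, one of 2 lower among 19 glycolysis and hypoxia genes. That list had 1 higher gene, and its share of lower genes was near the 12.4% over all genes.

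**Figure D3:**
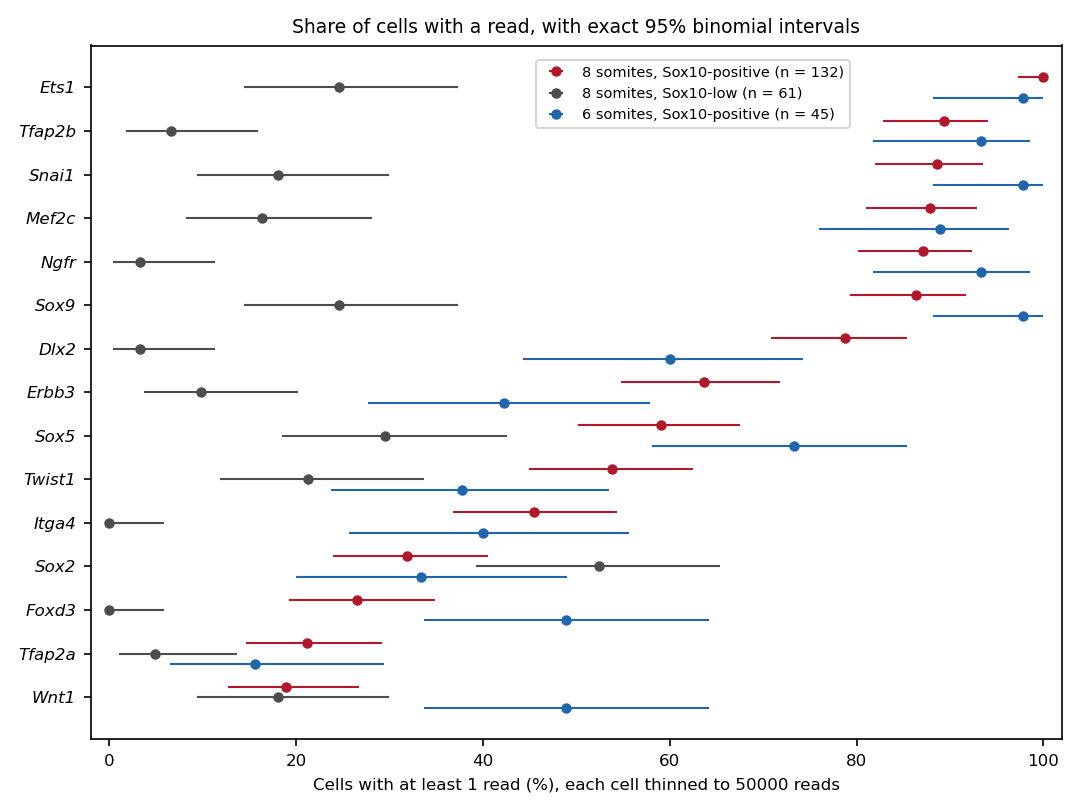
Percent of cells with at least 1 read of each gene after thinning every cell to 50000 reads, with exact 95% Clopper-Pearson intervals, for Sox10-positive cells of 8 somites (red), 61 Sox10-low cells of 8 somites (grey) and 45 Sox10-positive cells of 6 somites (blue). Tfap2b was read in 89.4% of members and 6.56% of Sox10-low cells, and Sox2 in 31.8% and 52.5%.

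Within the Sox10-positive cells some crest genes were general and others were not. At 50000 reads per cell, Ets1 was read in every member, Tfap2b in 89.4% (exact 95% interval 82.8 to 94.1%) and Dlx2 in 78.8% (70.8 to 85.4%). Twist1 was read in 53.8% (44.9 to 62.5%) and Foxd3 in 26.5% (19.2 to 34.9%). The share for Foxd3 was 59.1% without thinning, so such shares depend on depth. Wnt1 reached 10 CPM in 25 members, with a maximum of 2791 CPM. Hoxb1, a gene of the hindbrain, reached it in 12 members, with up to 565.9 CPM, and Crabp1, which binds retinoic acid, had 18.67 to 6533 CPM.

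Rank correlations over the 96 members with under 9000 genes describe which genes went together. They come from all pairs of 34 genes, some of them picked after their values were seen, and the cells share a pool, a plate number and differences in depth. Sox10 had 0.35 with Sox5 and −0.03 with Sox9. Wnt1 had 0.51 with Slc2a3, a glucose transporter, 0.48 with Map1b, a microtubule protein, and 0.46 with Sox9, and −0.50 with Gpc1, a glypican. Mef2c had 0.42 with Dlx2, −0.49 with Map1b and −0.44 with Wnt1. Gpc1 and Plcg2 had 0.52, and Tfap2a, another AP-2 factor, and Ets1 had 0.48. In the 27 low and the 69 high spike-in cells taken apart, Wnt1 with Slc2a3 gave 0.52 and 0.51, Mef2c with Map1b −0.59 and −0.47, and Gpc1 with Plcg2 0.33 and 0.59. Cells with more Wnt1 thus tended to have more Slc2a3, Map1b and Sox9 and less Mef2c and Gpc1.

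**Figure D4:**
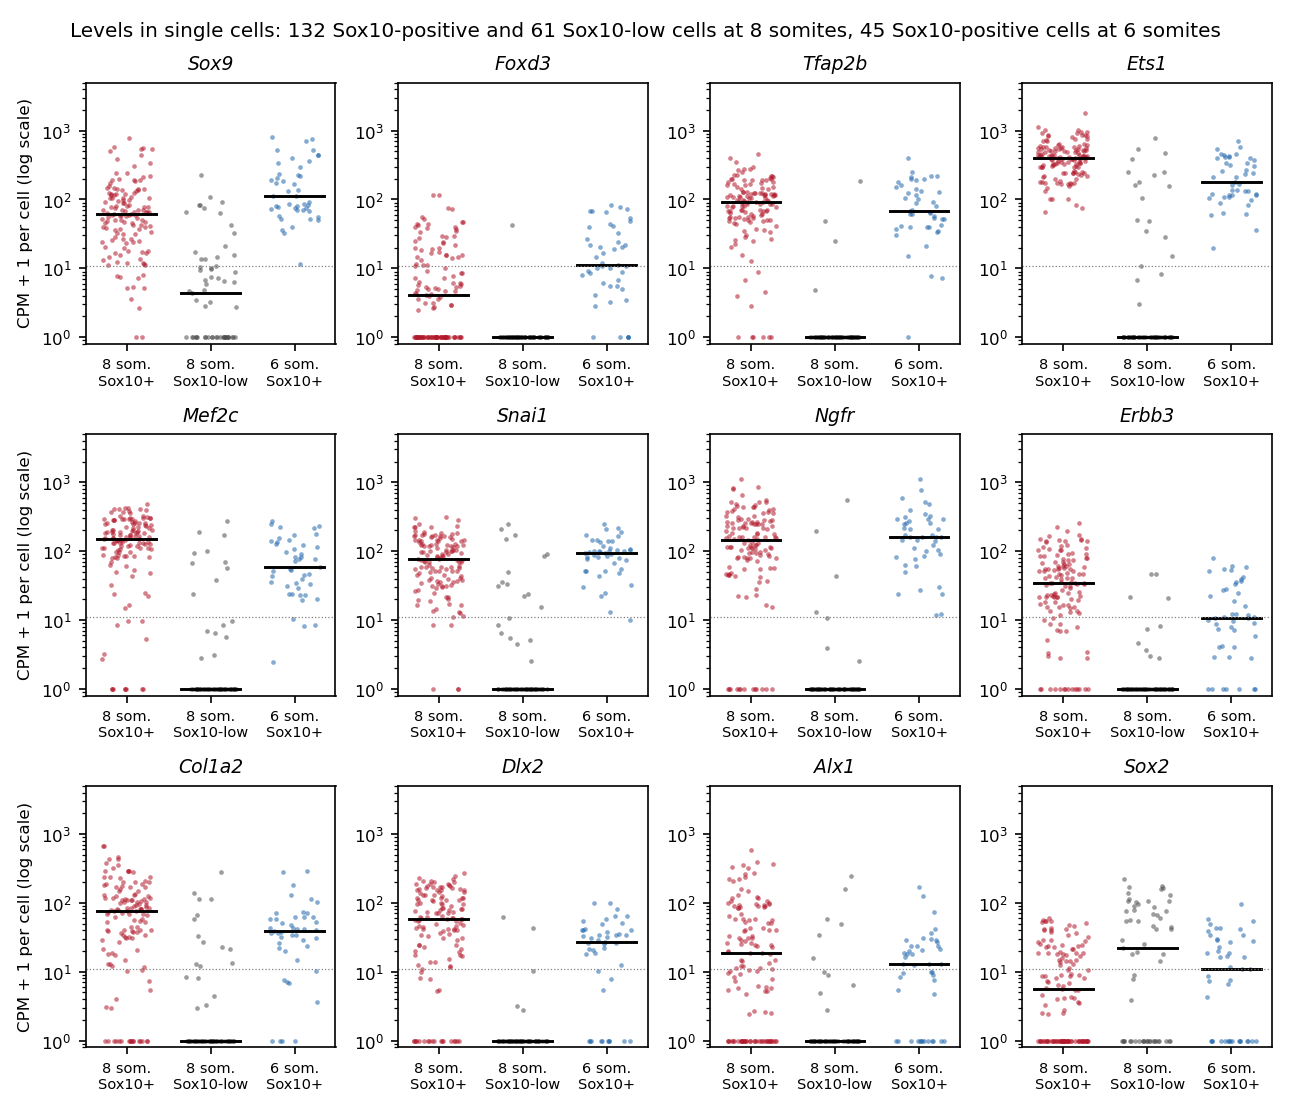
CPM + 1 in every cell (log scale) for 12 genes, in Sox10-positive cells of 8 somites (red), 61 Sox10-low cells of 8 somites (grey) and 45 Sox10-positive cells of 6 somites (blue). Bars are medians and dotted lines mark 10 CPM. Ets1 lies above 10 CPM in every member, Foxd3 and Alx1 spread down to 0, and the Sox2 median is 4.53 CPM in the members and 21.4 CPM in the Sox10-low cells.

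Set against Sox10-positive cells of 6 somites, the members had similar levels of Tfap2b, Snai1 and Ngfr. Levels of Dlx2, an arch gene, and Alx1, a frontonasal gene, were higher, and those of Sox9 and Foxd3 lower. Among 9884 genes with at least 5 CPM in either group, 3.63% were at least 2-fold higher and 4.59% at least 2-fold lower at 8 somites, with a median ratio of 0.00. In low spike-in wells and in cells with under 9000 genes alike, 1.45% were higher and 1.81% lower. Higher genes made up 44.2% of those past 2-fold, and 60.3% with Rn45s kept in the totals. A second ratio, for the 50 members in low spike-in wells against all 45 cells of 6 somites, follows each ratio below. Stage, sex and plate columns cannot be told apart in either.

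Tfap2b, Snai1 and Ngfr were close between the stages. Tfap2b had medians of 90.3 CPM at 8 somites and 66.99 CPM at 6, with ratios of 0.03 and −0.06. Snai1 had medians of 75.04 and 92.7 CPM, with −0.14 and −0.41, and Ngfr of 144.6 and 159.4 CPM, with −0.31 and −0.26. Of 18 crest factors 2 were higher and 2 lower. Sox9 had 0 to 771.1 CPM with a median of 60.1 at 8 somites, against 10.4 to 819.3 CPM with a median of 112.3 at 6, and ratios of −1.06 and −1.02. Foxd3 had medians of 3.15 and 10.1 CPM and ratios of −1.001 and −1.01. Both were lower at 8 somites, with ranges that overlapped, and without the highest 6 somite cell of each the ratios were −0.90 and −0.88, under 2-fold. Gfra1 had ratios of −1.27 and −1.42. Ets1 had medians of 405.4 and 179.8 CPM, with 0.84 and 0.33, and Erbb3 of 33.02 and 9.83 CPM, with 1.39 and 0.12, so neither was 2-fold higher in low spike-in wells.

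Dlx2, Alx1 and some genes outside the ectomesenchyme list were higher at 8 somites. Of 10 ectomesenchyme genes 3 were higher and 2 lower, with a median of 0.86, beside 3.63% and 4.59% over all genes. In low spike-in wells 2 were higher and 2 lower, with a median of 0.44, beside 3.15% and 4.12%. The list thus had no net direction by count there. In cells with under 9000 genes 6 were higher and 1 lower, beside 6.55% and 4.87% over all genes. Dlx2 had 0 to 273.1 CPM with a median of 57.8 at 8 somites, against 0 to 99.6 CPM with a median of 25.99 at 6, and ratios of 1.34 and 1.398. Mef2c had medians of 151.6 and 58.4 CPM and ratios of 1.11 and 1.01, and Alx1 ratios of 1.54 and 1.06. Nr2f2, a nuclear receptor of head mesenchyme, had medians of 38.8 and 6.76 CPM, with 1.92 and 1.94, and Tgfb1i1, a focal adhesion protein, of 14.5 and 0 CPM, with 2.46 and 2.71. Crabp1 had medians of 238.5 and 95.9 CPM, with 1.21 and 1.22. These genes were at least 2-fold higher in both readings, but in cells with under 9000 genes Mef2c had 0.80.

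By the naming rule the 12 genes highest over 6 somites were Tug1, Tgfbr1, Jag1, Mbnl1, Plcg2, Gpc1, Slc5a3, Dnajc1, Tiparp, Sh3bp5, Farp1 and Alx1, and 7 of them stayed at least 2-fold higher in every choice of wells. Plcg2 had 0 to 1155 CPM with a median of 285.8 at 8 somites, against 0 to 468.1 CPM with a median of 55.3 at 6, and ratios of 1.741 and 1.61. Gpc1, which overlaps exons of Ankmy1, had medians of 388.8 and 114.6 CPM and ratios of 1.73 and 1.85. Dnajc1, a chaperone cofactor overlapping Mllt10, had 1.67 and 1.49, Tiparp, an ADP-ribosyltransferase, 1.61 and 1.59, and Farp1, a guanine nucleotide exchange factor, 1.58 and 1.33. The other 5 were under 2-fold in low spike-in wells. Tug1, a long noncoding RNA overlapping Morc2a, had 2.24 over all wells and 0.52 there, Tgfbr1, a TGF-beta receptor, 2.05 and 0.29, and the Notch ligand Jag1 1.96 and 0.39. Mbnl1, a splicing factor, had 1.88 and 0.90, and Slc5a3, an inositol transporter, 1.68 and −0.33.

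**Figure D5:**
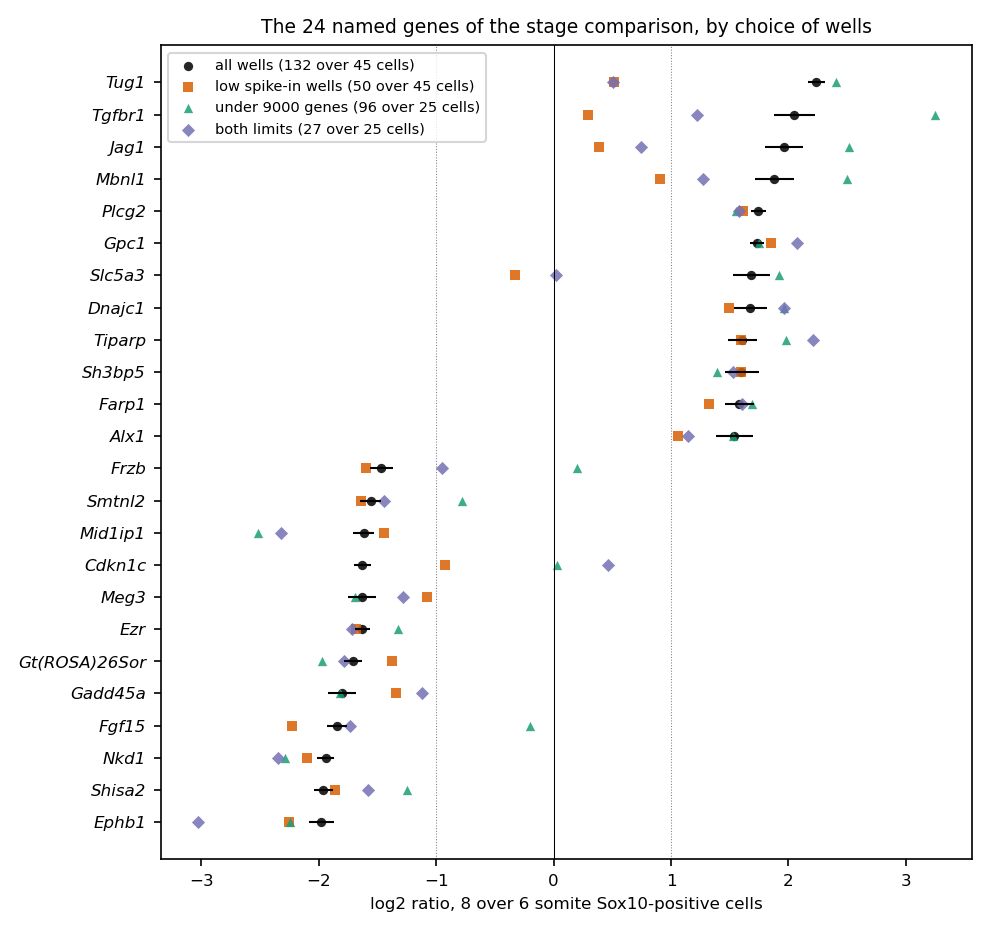
Log2 ratios of 8 over 6 somite Sox10-positive cells for the 24 genes of the naming rule, in all wells (black, with 95% counting intervals), in low spike-in wells (orange), in cells with under 9000 genes (green) and under both limits (violet). Dotted lines mark 2-fold. Plcg2 and Gpc1 lie above 1 in all 4, whereas Tug1, Tgfbr1, Jag1, Mbnl1 and Slc5a3 lie below 1 in low spike-in wells, and Cdkn1c lies above 0 among cells with under 9000 genes.

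The 12 lowest genes were Ephb1, Shisa2, Nkd1, Fgf15, Gadd45a, Gt(ROSA)26Sor, Ezr, Meg3, Cdkn1c, Mid1ip1, Smtnl2 and Frzb, and 8 of them stayed at least 2-fold lower in every choice of wells. Ephb1, a receptor for ephrin-B ligands, reached 10 CPM in 43 members and in 37 of 45 cells of 6 somites, with ratios of −1.98 and −2.26. Nkd1, an inhibitor induced by Wnt signals, had medians of 25.3 CPM at 8 somites and 147.5 CPM at 6, with −1.94 and −2.10, and Ezr (ezrin), which links membrane and actin, of 37.9 and 215.7 CPM, with −1.63 and −1.68. Gt(ROSA)26Sor, at the locus that carries the reporter, overlaps exons of Thumpd3 and had −1.71 and −1.38. Mid1ip1 is X-linked. Fgf15, Cdkn1c, Smtnl2 and Frzb missed 2-fold in cells with under 9000 genes, at −0.20, 0.03, −0.78 and 0.19.

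Of 15 neural progenitor factors 8 were lower and 0 higher than at 6 somites, with a median of −1.27. In low spike-in wells 6 were lower and 1 higher. In cells with under 9000 genes 2 were lower and 5 higher, and 3 of the factors had 0 reads in the 6 somite cells. The direction of that list thus depended on the choice of cells. Of 16 Wnt response genes 5 were lower and 1 higher, Sfrp5, at 24.5 CPM at 8 somites and 0.718 CPM at 6, and in cells with under 9000 genes 4 were lower and 3 higher. Of 19 glycolysis and hypoxia genes 3 were lower and 0 higher. Slc2a1 had medians of 507.98 and 1371 CPM and ratios of −1.45 and −1.16, and Bnip3, a mitochondrial protein induced by hypoxia, ratios of −1.15 and −1.09. S and G2M phase genes again showed 0 of 30 and 0 of 32 at this fold.

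The same limits on Sox10 and Actc1 held for 37 cells of 6 somites and 46 of 10 somites on the plate number, and for 230 cells with under 9000 genes and 54 with more at 10 somites of another plate number. Each set was read against Sox10-low cells of its own stage and plate number, 24 at 6 somites and 7 and 88 at 10 somites. All 12 leading genes were at least 2-fold higher at 6 somites and on the other plate number of 10 somites, and 11 were on the shared plate number, where Cdc42ep1 had 0.76. All 12 lowest genes were at least 2-fold lower in all 3. Both sets of 12 had been picked for their ratios at 8 somites, and whole lists did not all repeat. At 10 somites on the shared plate number, with 7 Sox10-low cells, 11 cadherin and junction genes were higher and 4 lower. Of the semaphorins and Slits 8 were higher and 3 lower there. On the other plate number the counts were 0 higher and 11 lower, and 0 higher and 10 lower. Summed over the Sox10-positive cells of 6, 8 and 10 somites on the shared plate number, Sox9 stood at 236.4, 99.1 and 55.2 CPM, Foxd3 at 25.04, 11.04 and 4.84 CPM and Gfra1 at 27.6, 10.1 and 2.17 CPM. These 3 genes were thus lower at each later stage. Dlx2 stood at 29.7, 74.7 and 91.6 CPM, Alx1 at 21.68, 56.3 and 116.4 CPM, and Mef2c at 89.8, 170.8 and 191.9 CPM. The order of these 3 ran the other way, and the order over stages was not tested. Xist reached 10 CPM in 1 of the 46 cells of 10 somites and in all 37 of 6 somites. Low spike-in wells held all 37 cells of 6 somites, 50 members and 1 of the 46 cells of 10 somites. At least 9000 genes were found in 12, 36 and 29 cells of these groups. Stage and wells were thus not separated in the order over stages, and the part of the wells was not tested.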

How the data were processed

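The authors deposited 1 table of raw read counts per gene and cell, 24920 genes and 92 ERCC spike-ins in 1778 cells, without normalization or molecular identifiers. Per the submitters' processing notes, bcl2fastq 2.18, STAR 2.6 and mm10 were used, while the counter, its annotation and any filter on cells are not named there. What the plate number in each label stands for is not stated. The members were 132 of 212 kept 8 somite cells. No doublet caller was run, since cells were sorted singly. Positions are those of GENCODE vM21, matched by symbol.

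CPM was computed here without spike-ins and Rn45s, with Python 3.11.15, pandas 2.3.3, numpy 2.4.6, scipy 1.17.1 and matplotlib 3.10.9. Reads were summed over the cells of a group (68.0, 33.1 and 19.5 in units of 1000000 reads for members, Sox10-low cells and 6 somite cells). Intervals at 95% are exact Poisson or Clopper-Pearson, and those of ratios are conditional binomial. R 4.3.3 with edgeR 4.0.16 and DESeq2 1.42.0 gave alternative scalings alone. The arithmetic was tested on simulated data.

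The members and gene lists were chosen with earlier results of these data known. The naming rule took a fixed set of crest genes, the 12 largest ratios in each direction with at least 50 CPM and a read in at least 50% of cells of the higher group (with per-cell means also 2-fold apart), and up to 4 genes of each list. Genes named outside it were chosen after their values were seen. A few genes are not reported here and were left out of the lists and marker sums. Sex-linked marker genes, ribosomal protein genes and pseudogenes were kept out of the 12.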

Additional observations from a re-analysis of the deposited data

How the results depend on the processing

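The number of genes past 2-fold stayed within 1.5 times under most alternatives, and the exceptions follow as percent of genes tested. Against the Sox10-low cells, 11.5% were higher and 20.9% lower without a minimum level (3.31% and 12.4% as reported), and 2.22% and 7.15% with a minimum of 20 CPM. Higher genes made up 7.63% against the 24 Sox10-low cells with at least 50 CPM of Sox2, 13.4% against the 8 with at least 50 CPM of Sox9, and 5.03% in high spike-in wells. Against 6 somites, 13.2% were higher and 12.5% lower without a minimum, 2.37% and 1.69% with a minimum of 20 CPM, 2.52% lower with Rn45s kept in the totals, and 6.55% higher in cells with under 9000 genes. Higher genes made up 37.04% of those past 2-fold against the Sox2-positive, 46.1% against the Sox9-positive Sox10-low cells and 35.6% without a minimum, where the reported share was 21.04%. Against 6 somites it was 58.3% with the 20 CPM minimum and 57.4% in cells with under 9000 genes, where the reported share was 44.2%.

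Against the 8 Sox9-positive Sox10-low cells the ratios were −0.049 for Sox9, −0.0028 for Pdgfra and 0.995 for Sox2. Those cells were chosen for high Sox9, so the lower ratio of Sox9 follows from the choice. Against 6 somites, Slc5a3 had −0.33 in low spike-in wells and Erbb3 −0.052 in low spike-in wells with under 9000 genes. The cause of the other differences was not tested. Leaving out the Sox10-low cell with the highest level of a gene, an alternative added after the data were seen, raised the ratios of Alx1, Cdk18, Dlx2, Gfra3, Ngfr, Ret, Sox6, Sox8 and Tfap2b by over 1.5 times, to between 2.47 for Sox6 and 6.77 for Gfra3. It left 3 reads of Itga4, 1 of Sfrp5 and 0 of Foxd3 and Gfra1 in the other Sox10-low cells. No paired analysis was possible because replicate numbers only name cells and no embryo is named. Every stage was counted as a single pool because the labels name none, so leaving out a replicate could not be tried. Some stages also had cells on another plate number, but whether those came from a second pool is not known. Genes with under 5 CPM in both groups were not judged, and depth limits what a share of cells with a read can show.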
